A study of Mus musculus with 189 samples.

Results

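Transcripts of 4 enzymes that place or oxidise methyl groups on DNA, Dnmt3a, Dnmt3b, Tet1 and Tet3, were followed from the mature mouse oocyte to the blastocyst by quantitative PCR. The members were chosen by name as the DNA methyltransferase and TET assays among the 156 that passed quality control, of 192 on the chips. The assay for Dnmt1 did not pass. Of the 189 samples, 3 were left out by the study, and those used for the course through the stages came from 11 MII oocytes, 14 zygotes, 8 2-cell, 3 3-cell, 6 4-cell, 7 8-cell, 2 16-cell and 7 32-cell units, a unit being 1 oocyte or embryo. The 11 2-cell blastomeres whose embryo is not named were counted as 1 unit. Of the 2-cell, 4-cell and 8-cell units, 3 at each stage were embryos lysed whole. The 16-cell and 32-cell units were of blastomeres only, and whole embryos of these stages were kept apart. Whether oocytes or embryos shared a mother is not given, and p-values measure the spread between the units.

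Oocytes and embryos came from superovulated F1 females (C57BL/6 x DBA/2), and for embryos these were mated with C57BL6 males. No group carried an altered gene or was treated, and the ages of the mice are not given in the sources used here. MII oocytes are unfertilised eggs arrested in the second meiotic division. Embryos were cultured in KSOMaa medium at low oxygen and were taken apart into single blastomeres, or small groups of them, or were lysed whole. Cells were picked by hand, so the blastomeres of an embryo are not always all present. The morula is the 16-cell stage and the blastocyst the 32-cell stage. The source names of the 16-cell blastomeres join the words for both stages, and blastomeres of 1 of these 2 embryos were numbered up to 20. Dilutions of standard RNA of embryonic stem cells (ESC), with no cell line named, were run beside the embryos.

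In mammals, methyl groups on cytosine are largely removed after fertilisation and put back as the embryo prepares to implant. Dnmt3a and Dnmt3b are the de novo methyltransferases, which add the mark to sites that lack it. Tet1 and Tet3 are paralogous dioxygenases that oxidise the methyl group, the first step of active demethylation, and Tet3 is known as the TET enzyme of the oocyte, which acts on the paternal genome of the zygote. Tet1 is known for its high level in embryonic stem cells and the inner cell mass (ICM), the cells of the blastocyst that form the embryo proper. The outer cells of the blastocyst form the trophectoderm (TE), from which the placenta arises.

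The upstream sequences of Tet1 and Tet3 are given because the transcripts of this paralogous pair changed in opposite directions at the same step. They are the 250 bases before the annotated start of each gene in RefSeq (GRCm38.p6), printed 5′ to 3′ on the strand of the gene, with every CG dinucleotide, the site these enzymes act on, in capitals. Tet1 lies on the minus strand at chr10:62887325-62887574 and Tet3 on the minus strand at chr6:83441679-83441928.
Tet1: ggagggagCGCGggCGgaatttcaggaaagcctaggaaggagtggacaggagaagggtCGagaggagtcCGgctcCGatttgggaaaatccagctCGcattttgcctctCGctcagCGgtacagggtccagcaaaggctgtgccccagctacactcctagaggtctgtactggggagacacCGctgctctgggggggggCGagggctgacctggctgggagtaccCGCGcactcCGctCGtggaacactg
Tet3: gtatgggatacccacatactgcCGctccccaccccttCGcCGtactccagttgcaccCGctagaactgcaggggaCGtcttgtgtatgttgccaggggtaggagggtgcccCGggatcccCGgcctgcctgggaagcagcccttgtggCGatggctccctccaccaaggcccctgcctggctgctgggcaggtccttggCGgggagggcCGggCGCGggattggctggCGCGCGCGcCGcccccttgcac
The Tet1 stretch held 15 CG dinucleotides and the Tet3 stretch 17. Among 32851 windows of this length in the same RefSeq table the median was 6, and 27.3% and 23.5% of the windows held at least as many as those of Tet1 and Tet3. CG reads the same on both strands. The windows of Dnmt3a (3 annotated starts) and Dnmt3b were counted too, and held 15 to 40 and 21.

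Levels are 30 minus the threshold cycle (Ct) of the PCR, less the same value averaged over the control genes Hnrnpr, Ssu72 and Ube2e1, so that 1 unit is a factor of 2 and higher means more transcript relative to the control genes. Levels of different genes were not compared with each other, because each assay has its own efficiency. An undetected gene is given a Ct of 30, and its level then depends only on the control genes of that sample. Over the stages such values ran from -18.1 in a zygote to -9.78 in a 32-cell blastomere. Of the 672 values of the 4 genes, 42 were not detected, all of them of Tet1 or Tet3. The mean Ct of the control genes had a median of 12.9 in MII oocytes and of 17.7 in 32-cell blastomeres, and it lay above 18 in 22 samples of the 32-cell stage, 2 of the 2-cell and 1 of the 3-cell stage. The oocyte marker Dazl was detected in all 11 MII oocytes and in 8 of 50 samples of the 32-cell stage.

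Tet3 had its highest levels in the oocyte and the zygote. In the 11 MII oocytes it lay between 1.77 and 2.60, with a median of 2.07, and in the 14 zygotes between 1.78 and 2.50, with a median of 2.20. These were narrow ranges that overlapped almost in full. In 21 2-cell samples the highest level was 0.61, the median -1.67 and the lowest -11.2, the last from 1 blastomere in which Tet3 was not detected. All 2-cell samples thus lay below all zygotes.

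From the 8-cell stage on, Tet3 was not detected in a part of the samples. The 7 3-cell samples lay between -4.45 and -2.62 with a median of -3.80, and the 12 4-cell samples between -5.28 and -1.16 with a median of -2.16. At the 8-cell stage 25 of 27 samples had detectable Tet3, with a median of -5.09 over all 27. It was detected in 15 of 26 samples of the 16-cell stage and in 25 of 50 of the 32-cell stage. Among these detected samples alone the medians were -5.62 and -4.73, and no detected value at either stage reached the lowest level of a zygote.

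Tet1 had the opposite course. It was detected in 10 of 11 MII oocytes, where its level ran from -17.4 to -7.90 with a median of -8.78, and in 12 of 14 zygotes, where it ran from -18.1 to -6.93 with a median of -9.94. Detection was thus frequent but late, at a median Ct of 21.4 in oocytes and 23.1 in zygotes, against 19.1 in 2-cell samples. From the 2-cell stage on every sample had detectable Tet1. The 21 2-cell samples lay between -4.43 and -1.36 with a median of -2.77, all above every zygote. Of these, the 3 embryos lysed whole were at -3.98, -4.43 and -4.09. The rest, whose titles name a set A, lay above them, with a lowest level of -3.40. Set A and whole lysis cannot be told apart here. The medians of 3-cell, 4-cell, 8-cell and 16-cell samples were close to each other, at -3.86, -3.84, -3.51 and -3.64. In 50 samples of the 32-cell stage it ran from -4.43 to 0.87 with a median of -0.89, and 35 of them exceeded the highest 16-cell value of -1.41.

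Dnmt3a was detected in every sample and had its lowest medians in the middle of the course, though its lowest single level, -6.60, was in a 32-cell sample. Its level lay between -1.57 and -0.64 in MII oocytes, with a mean of -1.03 ± 0.25 (SD, n = 11). In zygotes it spread from -1.63 to 1.36, with a median of -1.29. The medians of 2-cell and 3-cell samples were -2.38 and -2.30, and that of 4-cell samples was -3.56, the lowest of all stages. In 8-cell samples the median was -2.95. Those of 16-cell and 32-cell samples of blastomeres, -1.23 and -1.38, lay within the range of oocytes. Whole embryos of these stages lay below every oocyte, at -2.60 to -1.59 and at -3.34 to -1.96. The zygotes fell into a lower and an upper set, with no value between -1.27 and -0.25. The 8 lower zygotes lay at or below -1.27, and the other 6 ran from -0.25 to 1.36, each above every MII oocyte. The gap of 1.03 was the widest between neighbouring zygotes, the next being 0.71, and the mean Ct of the control genes overlapped, at 11.9 to 13.4 in the lower and 12.8 to 13.3 in the upper set. Tet1 ran from -18.1 to -9.55 in the lower set, which held the zygotes without detectable Tet1, and from -10.05 to -6.93 in the upper set. These sets were seen in the values and are no groups of the study.

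Dnmt3b was likewise detected in every sample, and its levels stood out at the end of the course rather than at the start. It lay between -0.77 and -0.10 in MII oocytes, with a median of -0.49, and between -1.66 and -0.16 in zygotes, with a median of -0.53. Medians of -1.76, -1.20, -1.27 and -0.98 followed in 2-cell, 3-cell, 4-cell and 8-cell samples, with wide overlap. The 2-cell embryos lysed whole were at -1.42, -0.72 and 0.91, and the 2-cell samples of set A ran from -3.91 to -1.06. In 16-cell samples it ran from -0.82 to 2.84 with a median of 1.23, and 25 of 26 lay above the highest 8-cell sample. In 32-cell samples it ran from -1.78 to 3.47 with a median of 0.59.

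**Figure D1:**
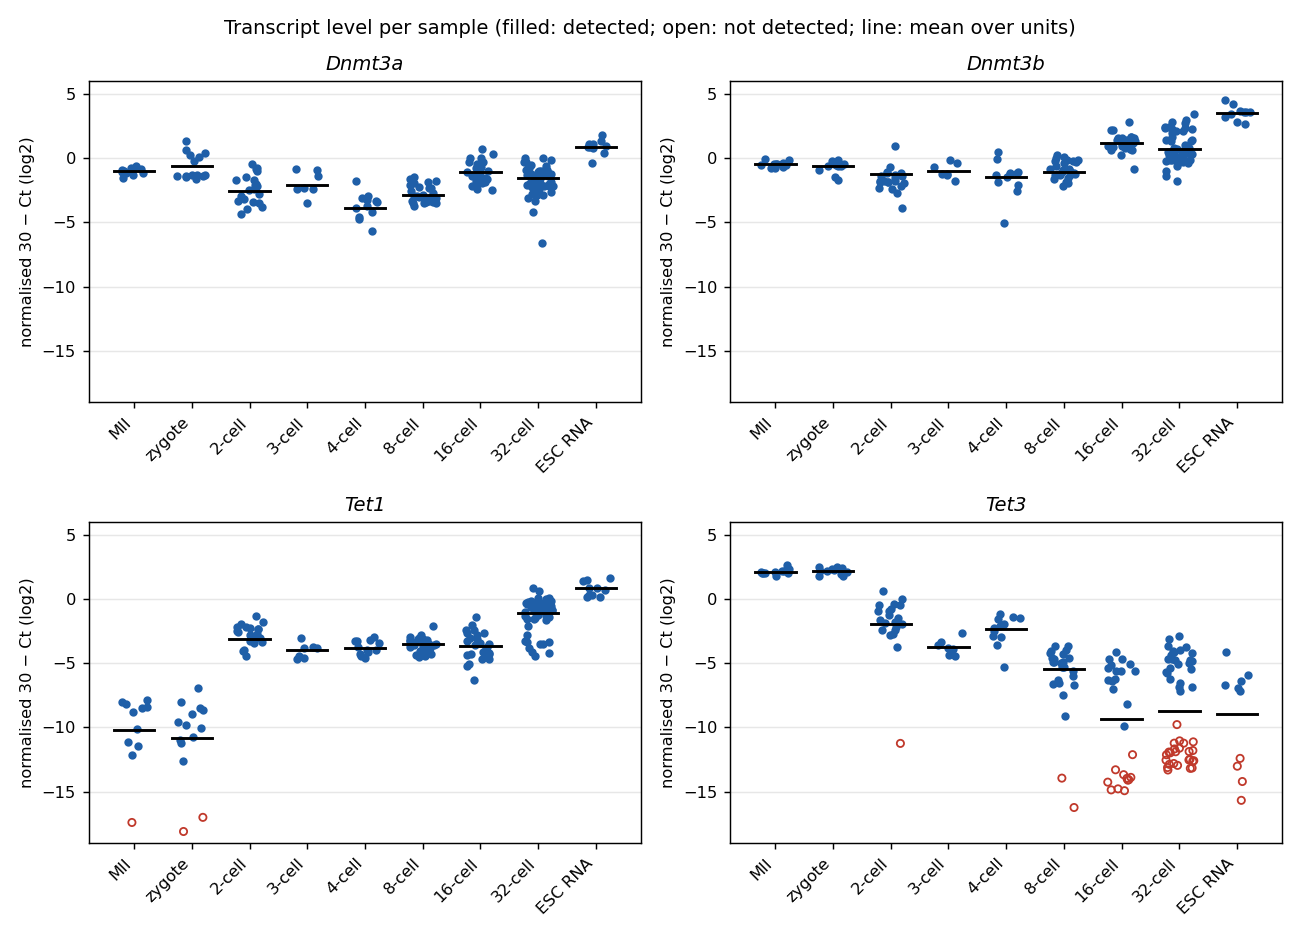
Level of each gene in every sample, as 30 minus Ct relative to the 3 control genes on a log2 axis, by stage and in ESC RNA. Filled points are samples with the gene detected, open points samples without, and the line is the mean over oocytes or embryos (over the 3 dilution series for ESC RNA). Tet3 starts between 1.77 and 2.60 in MII oocytes and is not detected in 25 of 50 samples of the 32-cell stage, while Tet1 is detected in every sample from the 2-cell stage on.

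Steps between stages were tested on the 58 unit means with limma, all stages in 1 fit, and p-values were adjusted by Benjamini-Hochberg over the 156 genes of each step. Zygotes against MII oocytes is the first step, across fertilisation. None of the 4 genes passed the threshold of 0.05, against 1.92% of all genes (3 of 156; 22 had an unadjusted p under 0.05). The difference was 0.41 (95% confidence interval -0.21 to 1.02) for Dnmt3a, -0.16 (-0.60 to 0.29) for Dnmt3b, -0.61 (-2.31 to 1.08) for Tet1 and 0.08 (-0.76 to 0.92) for Tet3. The interval of Tet1, the gene with undetected oocytes and zygotes, was the widest of the 4.

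Between zygote and 2-cell stage, when the maternal transcripts are cleared and the embryonic genome is activated, all 4 genes passed, at a step where 68.6% of all genes did. Tet1 rose by 7.68 ± 0.93 (SE, n = 14 and 8 units) with an adjusted p of 2.37e-10 in limma, which was the 13th largest change of the 156 genes. Tet3 fell by 4.11 ± 0.46, or 17.3-fold, with an adjusted p of 2.68e-11 in limma. The median difference of all genes at this step was -0.33, so that neither change was that of the chip as a whole. The size for Tet1 rests on how samples without detection are valued. With values under -10 raised to -10 it was 6.20.

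Both de novo methyltransferases changed less at this step. Dnmt3a fell by 1.93 ± 0.33, or 3.81-fold, with an adjusted p of 1.23e-06 in limma. Dnmt3b fell by 0.60 ± 0.25, or 1.51-fold, with an adjusted p of 0.028 in limma. This small difference depended on the control genes, since without Hnrnpr it was -0.17 with an adjusted p of 0.585 in limma. It was also lost without the samples whose mean control gene Ct lay above 18, at -0.56 with an adjusted p of 0.073 in limma. Of the 2-cell units that stand apart, described in the closing section, leaving out the one low in Tet3 gave -0.53 (adjusted p 0.061 in limma) and leaving out the one high in Dnmt3b gave -0.90 (adjusted p 0.000144 in limma).

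At the next steps, within the cleavage stages, few differences passed. From 2-cell to 3-cell none of the 4 passed, against 8.97% of all genes, and the largest difference was that of Tet3, at -1.81 ± 0.70 with an adjusted p of 0.101 in limma. Without the 2-cell embryo whose Tet3 mean of -4.99 lay far below the others, it was -2.25 with an adjusted p of 0.029 in limma. Tet3 also passed without Ssu72 (-2.38, adjusted p 0.015 in limma) and with the floor at -10 (-1.86, adjusted p 0.048 in limma). Without the samples of a control Ct above 18 it passed too (-2.40, adjusted p 0.033 in limma). The 3-cell samples came from 3 embryos, with Tet3 means of -3.86, -3.80 and -3.54. From 3-cell to 4-cell Dnmt3a was lower by 1.78 ± 0.53 with an adjusted p of 0.0487 in limma, the only one of the 4, against 3.85% of all genes. Its 3 3-cell units, at -2.73, -2.44 and -1.06, did not overlap with the 6 4-cell units, which ran from -4.76 to -2.88. The call did not survive leaving out the first 3-cell embryo (difference -1.28, adjusted p 0.366 in limma) or the third (-1.96, adjusted p 0.068 in limma).

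From 4-cell to 8-cell Tet3 alone passed, where 49.4% of all genes did. It fell by 3.11 ± 0.58, or 8.63-fold, with an adjusted p of 9.19e-06 in limma, against a median of -0.51 over all genes. Dnmt3a differed by 0.96 ± 0.42 with an adjusted p of 0.054 in limma, and passed under some of the alternatives, such as sample medians (1.43, adjusted p 0.000994 in limma). Tet1 differed by 0.30 (95% confidence interval -2.04 to 2.63) and Dnmt3b by 0.37 (-0.24 to 0.99).

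From 8-cell to 16-cell 3 of the 4 genes passed, where 28.2% of all genes did. Dnmt3b rose by 2.29 ± 0.44, or 4.87-fold, with an adjusted p of 9.00e-05 in limma, and the 2 16-cell units, at 1.06 and 1.37, lay above all 7 8-cell units, of which the highest was -0.05. Dnmt3a rose by 1.79 ± 0.61 with an adjusted p of 0.023 in limma, and its 16-cell units at -1.14 and -1.08 also lay above all 8-cell units, of which the highest was -2.18. Tet3 fell by 3.89 ± 0.83, or 14.8-fold, with an adjusted p of 0.000299 in limma, and its 16-cell units were at -10.1 and -8.61 against a lowest 8-cell unit of -8.26. The size rests on the 11 of 26 16-cell samples without detection. With the floor at -10 the difference was -2.42 with an adjusted p of 0.0075 in limma. The 8-cell units included 3 embryos lysed whole, while the 16-cell units were of blastomeres only. Whole 16-cell embryos had means of -2.08 for Dnmt3a, 0.67 for Dnmt3b and -5.47 for Tet3, against -1.11, 1.21 and -9.38 in the units. Relative to the control genes, whole embryos differed by 1.22 for Dnmt3a (adjusted p 0.156 in limma). For Tet3 they differed by -0.89 (adjusted p 0.013 in limma). For Dnmt3b the difference was 2.21 or more under each alternative in whole embryos.

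This step rests on 2 embryos and on the control genes. Without the first 16-cell embryo the adjusted p in limma was 0.134 for Dnmt3a, and without the second it was 0.17 for Dnmt3a and 0.054 for Tet3. Relative to Gapdh, Hspa8 and Lmnb1, the genes behind the authors' normalized table, the difference was 0.41 for Dnmt3b (adjusted p 0.482 in limma) and -0.08 for Dnmt3a (adjusted p 0.941 in limma), while that of Tet3 still passed. Fewer cells that hold a transcript and less of it per cell cannot be told apart in unit means or in groups of cells.

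From 16-cell to 32-cell none of the 4 passed, where 10.9% of all genes did. Tet1 differed most, by 2.54 ± 1.68 with an adjusted p of 0.365 in limma. Its 2 16-cell units, at -3.81 and -3.54, did not overlap with the 7 32-cell units, which ran from -1.70 to -0.48. With 2 against 7 units such a gap carries little weight. The standard error comes from a spread shared by all stages, oocytes and zygotes without detection included. With oocytes and zygotes left out of the fit, the difference was the same, with an SE of 0.49 and an adjusted p of 0.000884 in limma, and with a floor at -10 the adjusted p was 0.0022 in limma. Over the alternatives other than those that left out 1 unit, the adjusted p ran from 5.98e-05 to 0.792 in limma. For Dnmt3a and Dnmt3b the call depends on the scale. With no normalization they differed by -2.41 and -2.48 (adjusted p 0.012 and 0.022 in limma), and relative to Gapdh, Hspa8 and Lmnb1 by -1.60 and -1.67 (adjusted p 0.023 and 0.0055 in limma).

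Over the units of blastomeres, the markers of the cell lineages moved with this difference. The study's ICM genes without Tet1 (11 genes, chosen by the study on these samples, with Trim28 among them) had a mean level of -3.02 to -2.83 over the 16-cell units and of -0.95 to 1.57 over the 32-cell units. The 8 TE genes had -2.19 to -1.49 and -6.92 to -1.32. The ICM ranges did not overlap and the TE ranges did. In embryos lysed whole the TE genes were higher than in units of blastomeres at both stages. They were at -0.53 to 0.23 in 16-cell and 1.13 to 1.30 in 32-cell embryos. The ICM genes without Tet1 were at -0.90 to -0.51 in whole 16-cell and at -2.23 to -1.33 in whole 32-cell embryos. In whole embryos these ICM genes thus went down between the stages, where in the units they went up. Of the defining TE markers, Cdx2 was detected in all 26 samples of 16-cell blastomeres and in 34 of 50 of 32-cell blastomeres, and Gata3 in 26 of 26 and 26 of 50. The ICM marker Sox2 was detected in 8 of 26 and 40 of 50. By detection, other genes of the sets did not all follow. By median level over the samples of blastomeres they did. All 11 ICM genes were higher and all 8 TE genes lower at the 32-cell stage. Esrrb went from -0.70 to 1.17 and Pecam1 from -2.75 to 0.56. Krt8 went from -0.93 to -3.63 and Lats2 from -0.76 to -0.99. The TE genes Dppa1, Id2 and Tspan8 were also detected in a smaller share at the 32-cell stage, while Krt8, Lats2 and Tead4 were detected in every sample. The ICM gene Prdm14 was detected in 8 of 26 and 30 of 50, but Esrrb in 26 of 26 and 47 of 50. Pecam1 was detected in 22 of 26 and 40 of 50. Tet1 was at -3.59 to -3.48 in whole 16-cell embryos, and at -4.00 to -3.18 in whole 32-cell embryos, below all 7 units of blastomeres. The part of the lineages in the difference of Tet1 was not tested.

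**Figure D2:**
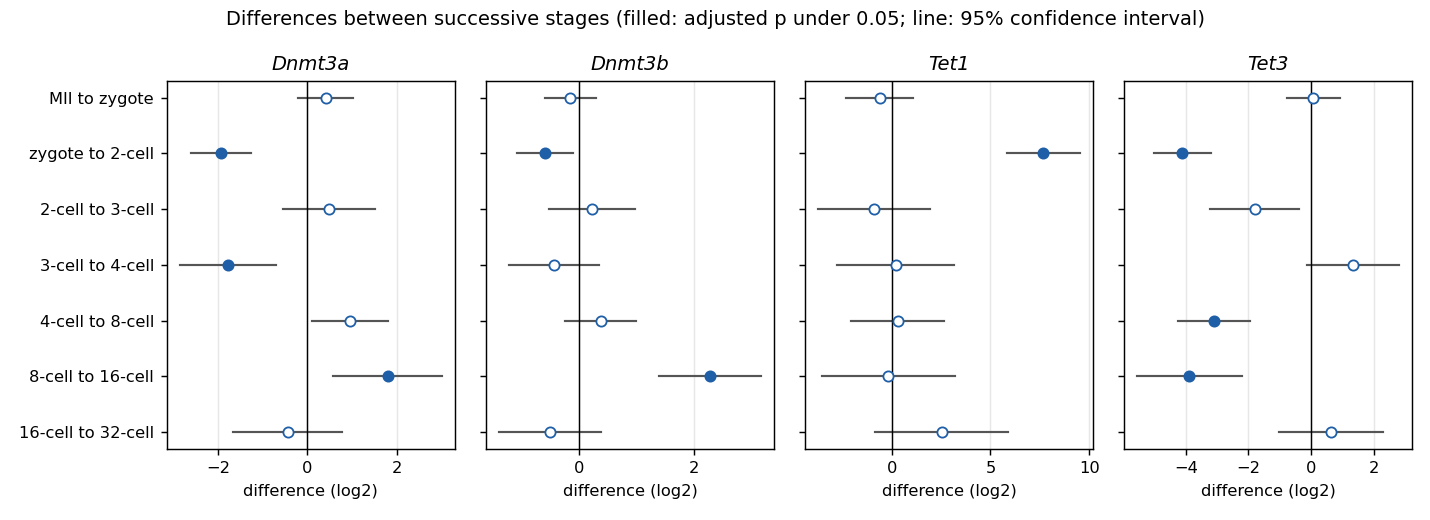
Difference between successive stages for each gene on the log2 scale, with its 95% confidence interval from limma. Filled points have an adjusted p under 0.05. At the step from zygote to 2-cell all 4 genes are filled, with Tet1 at 7.68 and Tet3 at -4.11.

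From MII oocyte to 32-cell blastomere, the whole span, 3 of the 4 genes passed, where 84% of all genes did. Tet1 was higher by 9.04 ± 1.01 with an adjusted p of 1.54e-11 in limma. Tet3 was lower by 10.8 ± 0.50 with an adjusted p of 3.85e-26 in limma. With the floor at -10, which bears on the 25 samples of the 32-cell stage without detection, the difference was -9.75. Whole 32-cell embryos are not in this fit. On the same scale they lay at -4.29 to -3.90 for Tet3, above the mean of the 32-cell units at -8.74. For Tet1 they lay at -4.00 to -3.18, below the mean of the units at -1.13. They were at -3.34 to -1.96 for Dnmt3a and at 0.17 to 0.40 for Dnmt3b. All 50 samples of 32-cell blastomeres lay above every oocyte for Tet1 and below every oocyte for Tet3. Dnmt3b was higher by 1.18 ± 0.27 with an adjusted p of 7.65e-05 in limma. Dnmt3a differed by -0.52 (95% confidence interval -1.25 to 0.21).

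The direction for Dnmt3b depends on the scale. With each sample set to its own median over genes found in every sample it was 1.46 higher (adjusted p 4.02e-07 in limma). As 30 minus Ct with no normalization the difference was -3.55, and relative to Gapdh, Hspa8 and Lmnb1 it was -2.63. The same scales gave -5.26 and -4.34 for Dnmt3a, both past the threshold. The control genes of 32-cell blastomeres came up later than those of oocytes, as their medians above show.

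The relation of the paralogues within a sample does not involve the control genes. The Ct difference of Tet1 and Tet3, written as Tet1 minus Tet3 in 30 minus Ct, had a median of -10.6 in MII oocytes and -12.1 in zygotes, with all 25 values below 0. It was -1.35 in 2-cell, -0.43 in 3-cell and -1.83 in 4-cell samples, of which 9 of 40 lay above 0. In 8-cell samples the median was 1.76 and 26 of 27 lay above 0. It grew to 4.24 in 16-cell and 6.97 in 32-cell samples, where 25 of 26 and all 50 lay above 0. Where both genes were detected the late medians were 2.15 and 3.28. Whole embryos ran the other way, from a median of 2.11 in 3 of the 16-cell to 0.37 in 3 of the 32-cell stage. The 0 line has no meaning of its own, as the 2 assays may differ in efficiency, but the course along it is that of 1 sample's own pair.

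For Dnmt3b minus Dnmt3a the medians were 0.55 in MII oocytes, 0.12 in zygotes, 0.87 in 2-cell, 1.10 in 3-cell and 2.79 in 4-cell samples. They were 1.79, 2.41 and 2.19 at the 8-cell, 16-cell and 32-cell stages. The late medians lay above the highest oocyte, at 0.80. Samples varied widely, from -1.63 to 3.74 among the 12 of the 4-cell stage.

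**Figure D3:**
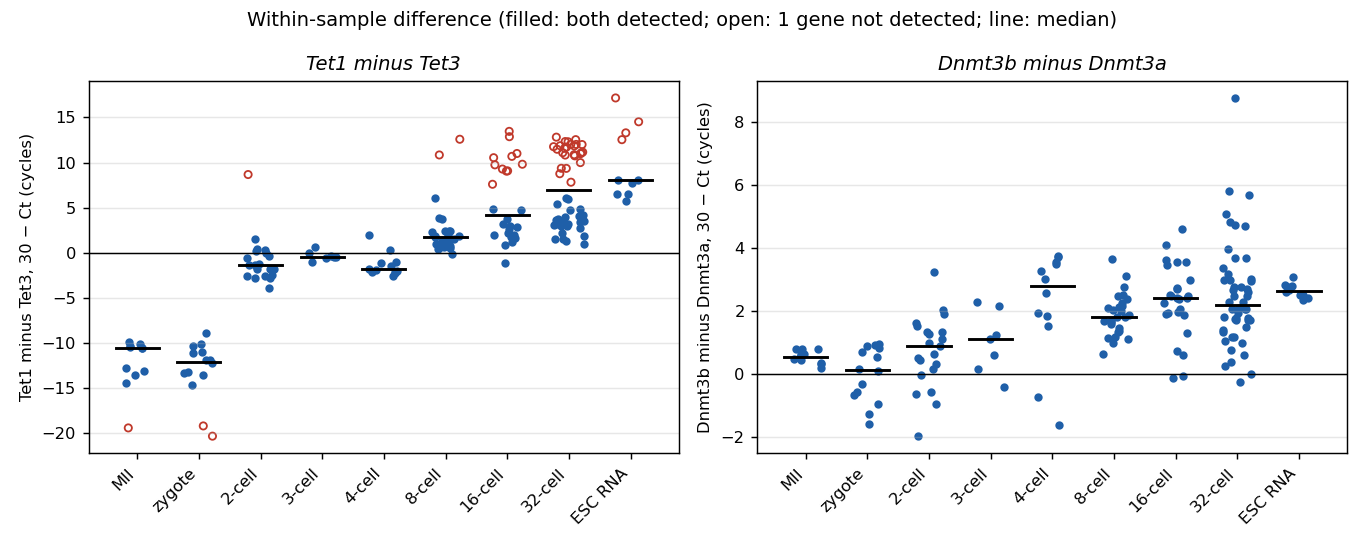
Difference between paralogues within each sample, in cycles of 30 minus Ct, by stage. Filled points are samples with both genes detected, open points samples with 1 of them not detected, and the line is the median over samples. Tet1 minus Tet3 goes from a median of -12.1 in zygotes to 6.97 in 32-cell samples.

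Whole oocytes and embryos, 40 in all with 3 at each stage from the 2-cell on, give the content of an embryo as 30 minus Ct with no normalization. Here too none of the 4 genes passed from MII oocyte to zygote, against 2.56% of all genes, and all 4 passed from zygote to 2-cell, where 77.6% did. Tet3 ran from 18.8 to 19.5 in oocytes and from 18.8 to 20.3 in zygotes, and was 14.1, 14.5 and 12.5 in the 2-cell embryos. It fell by 5.55 ± 0.37, or 46.8-fold, with an adjusted p of 4.68e-15 in limma, and the median over all genes at this step was -1.79. Dnmt3a fell by 3.77 ± 0.49, or 13.6-fold, with an adjusted p of 1.6e-08 in limma. Its 2-cell embryos were at 12.9, 12.2 and 12.9, below the lowest zygote at 15.19.

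Tet1 content went the other way at the same step. The 2-cell embryos were at 12.3, 11.8 and 9.85, against 0 (not detected) to 10.3 in zygotes. It rose by 5.03 ± 1.53 with an adjusted p of 0.0035 in limma, and by 6.83 over the median of all genes. Dnmt3b differed by -1.35 ± 0.39 with an adjusted p of 0.0021 in limma. This was less than the fall of the median gene, and relative to the control genes the difference was 0.24 with an adjusted p of 0.473 in limma.

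Between whole 2-cell and 4-cell embryos none of the 4 passed, against 0.641% of all genes. From 4-cell to 8-cell 2 of them did, against 25.6% of all genes. Tet3 was at 13.8, 14.3 and 14.0 in 4-cell and at 12.06, 12.37 and 12.36 in 8-cell embryos, and it fell by 1.79 ± 0.47 with an adjusted p of 0.0033 in limma. Dnmt3a was at 11.5, 12.2 and 11.3 in 4-cell and 14.0, 14.0 and 12.6 in 8-cell embryos, a rise of 1.90 ± 0.63 with an adjusted p of 0.020 in limma. The rise was lost on leaving out 4-cell embryo 1 or 3 or 8-cell embryo 1 or 2, with adjusted p-values in limma up to 0.11.

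The last steps in whole embryos ran with a shift of the whole chip. From 8-cell to 16-cell 80.1% of all genes passed, 124 of them higher, with a median of 2.79, and from 16-cell to 32-cell 65.4% passed, 100 of them lower, with a median of -2.46. In whole embryos the control genes came up at a mean Ct of 10.2 to 11.8 at the 16-cell and 12.0 to 13.5 at the 32-cell stage. The changes are given against that shift. From 8-cell to 16-cell Dnmt3b rose by 4.62 ± 0.50, Dnmt3a by 3.63 ± 0.63 and Tet3 by 1.52 ± 0.47, and less the median of all genes these were 1.84, 0.85 and -1.26. Relative to the control genes the difference of Tet3 was -0.89 with an adjusted p of 0.013 in limma, and that of Dnmt3a was 1.22 with an adjusted p of 0.156 in limma. Without the second 16-cell embryo the rise of Tet3 did not pass (1.01, adjusted p 0.065 in limma). From 16-cell to 32-cell Dnmt3a and Dnmt3b fell by 2.58 ± 0.63 and 2.25 ± 0.50, close to the median gene, and neither passed relative to the control genes.

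Tet3 content did not differ past the threshold from 16-cell to 32-cell, at 12.4, 14.8 and 14.2 against 12.6, 13.5 and 13.7. The difference was -0.50 ± 0.47 with an adjusted p of 0.349 in limma, where the median gene fell by 2.46. Relative to the control genes it was 1.40 with an adjusted p of 8.67e-05 in limma, and without the first 16-cell embryo it was -1.21 with an adjusted p of 0.018 in limma. Every whole embryo of both late stages held detectable Tet3. The blastomere samples, in part without Tet3, came from other embryos. Their control genes had a median Ct of 16.0 and 17.7 at the 16-cell and 32-cell stages, against 10.2 and 12.5 in whole embryos. Tet1 did not pass at any step after the 2-cell stage in whole embryos, with 12.3, 11.8 and 9.85 at the 2-cell stage and 13.3, 13.9 and 14.0 at the 32-cell stage. Its 16-cell embryos, at 14.6 to 16.4, lay above the 8-cell embryos, at 13.8, 13.7 and 12.8. That difference was 2.31 ± 1.97 with an adjusted p of 0.283 in limma, where the median gene rose by 2.79. The standard error comes from a spread shared with oocytes and zygotes without detection.

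**Figure D4:**
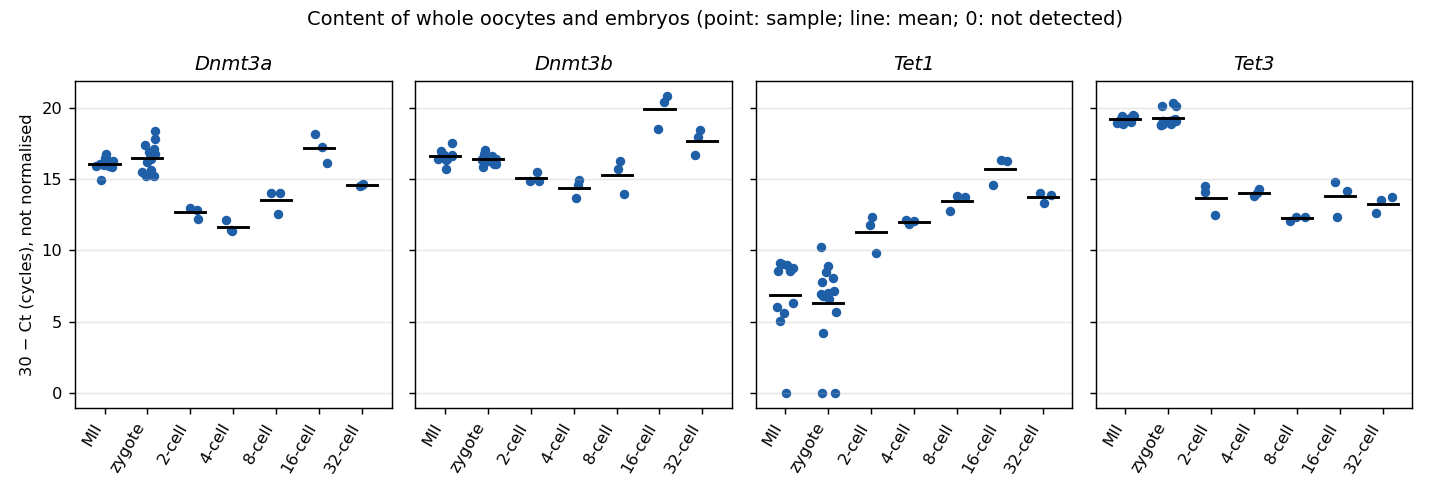
Content of each gene in whole oocytes and embryos as 30 minus Ct in cycles, with no normalization (a log2 scale, with 0 for not detected). Points are samples and lines are means. Tet3 lies between 18.8 and 20.3 in oocytes and zygotes and between 12.06 and 14.8 in embryos from the 2-cell stage on.

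In the single late blastomeres, 20 of the 16-cell and 32 of the 32-cell stage, the enzymes were found together in the same cells. Dnmt3a, Dnmt3b and Tet1 were detected in all 52. Tet3 was detected in 26, of which 11 were of the 16-cell and 15 of the 32-cell stage, so that each cell held 3 or 4 of the transcripts. The 16-cell embryos had Tet3 in 6 of 10 and 5 of 10 cells. Detection differed between 32-cell embryos, with 7 of 8 cells in embryo 8 and 4 of 10 in embryo 1. It was 0 of 2 in embryo 9 and 0 of 4 in embryo 10. No cell held 1 methyltransferase without the other. The mean Ct of the control genes had a median of 17.6 in cells with Tet3 and of 17.5 in cells without it, and ran from 14.4 to 19.9 and from 15.1 to 20.2. The ranges overlapped almost in full.

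Within an embryo, Tet3 had the highest SD of the 4 between sister cells of the late stages. Its SD within embryos was 4.49 among 20 single blastomeres of the 16-cell stage, against a median of 0.97 over all genes, and 3.76 among 32 of the 32-cell stage, against 1.32. It ranked 14th and 28th of 156 by this spread. It was not detected in 9 and 17 of these cells, which adds to its spread. For Tet1, Dnmt3a and Dnmt3b the SD was 1.24, 0.75 and 0.79 at the 16-cell and 1.31, 1.16 and 1.13 at the 32-cell stage, near the median gene.

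Relative to the control genes and over all 52 cells, levels in the same cell were at most loosely related. Spearman coefficients over the 52 cells are given as a description for the 6 pairs, as cells of 1 embryo share their source and all values share the control genes. For Dnmt3a with Dnmt3b rho was -0.03, for Dnmt3a with Tet3 -0.02 and for Dnmt3b with Tet3 -0.13. For Dnmt3a with Tet1 it was 0.02, but 0.20 within the 16-cell and 0.41 within the 32-cell stage. For Tet1 with Tet3 it was 0.23, and 0.53 over the 26 cells with Tet3 detected. For Dnmt3b with Tet1 it was -0.37, but 0.24 within the 16-cell and -0.27 within the 32-cell stage. With no normalization rho of Dnmt3a with Dnmt3b was 0.70, and the part of the amount of RNA in it was not tested.

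**Figure D5:**
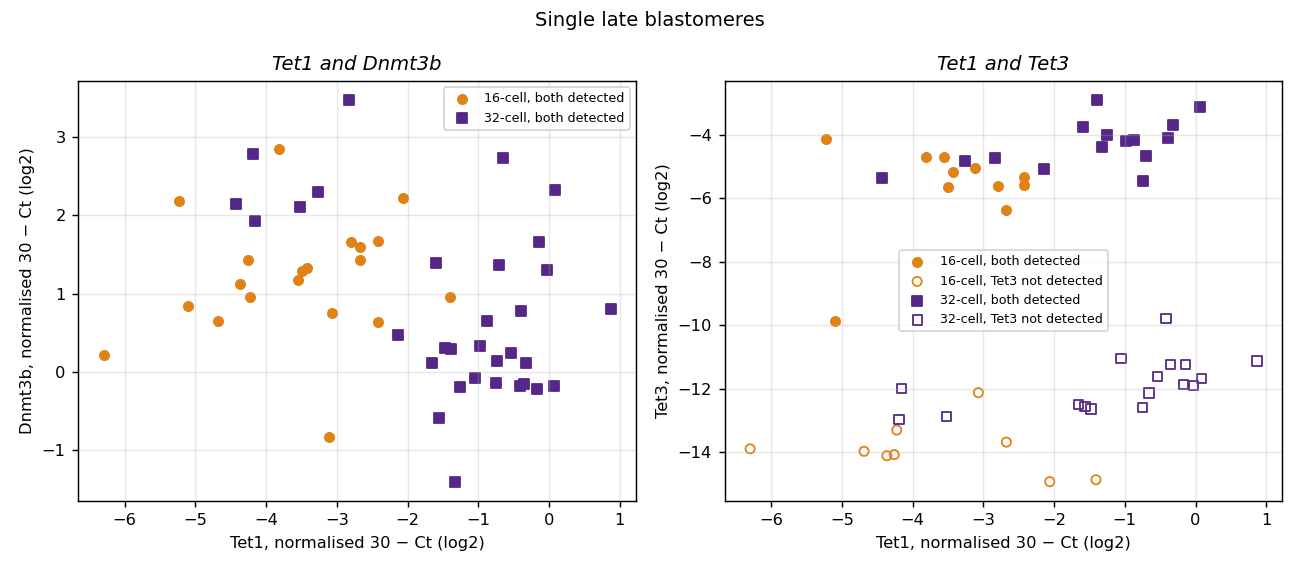
Level of Tet1 against Dnmt3b (left) and Tet3 (right) in 52 single late blastomeres, as 30 minus Ct relative to the control genes on log2 axes. Circles are 16-cell and squares 32-cell blastomeres, and open symbols are cells without detectable Tet3. Tet3 is detected in 26 of the 52 cells.

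Tet1 and Dnmt3b lay on opposite sides of the lineage markers. A score was taken as the mean of the study's ICM genes minus that of its 8 TE genes. For the coefficient of Tet1 itself, Tet1 was left out and 11 ICM genes remained. For the other members the score holds Tet1. Against this score, rho over the 52 cells was 0.73 for Tet1 and -0.52 for Dnmt3b, and 0.09 and 0.16 for Dnmt3a and Tet3. For Tet1 it was 0.76 within the 16-cell and 0.39 within the 32-cell stage, and 0.81 with values centred on each embryo. For Dnmt3b it was -0.03 and -0.48 within the stages, and -0.40 after centring. The genes most like Tet1 over these cells were Scmh1 (0.81), a Polycomb gene, Pdgfra (0.79), a growth factor receptor of the primitive endoderm, and Pou5f1 (0.79), a pluripotency factor, and at the other end stood Gata3 (-0.72), Cdx2 (-0.70) and Krt8 (-0.62), markers of the trophectoderm.

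For Dnmt3b the order was turned. Cdx2 (0.65), Gata3 (0.54) and the histone demethylase Kdm1b (0.46) stood highest, and Trim28 (-0.49), Sox2 (-0.44) and Scmh1 (-0.43) lowest. Dnmt3a was most like Ezh2 (0.55), Dppa3 (0.53) and Ctcf (0.51) and least like Phf8 (-0.40), the control gene Ssu72 (-0.35) and Setd1b (-0.28). Tet3 was most like the oocyte gene Dazl (0.42), Scml2 (0.41) and Cbx7 (0.41), and least like L3mbtl3 (-0.33), Kdm2b (-0.31) and Cdx2 (-0.28), all weak values. The study chose the ICM and TE genes on these same samples, Tet1 among the ICM genes.

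A group of cells labelled as ICM and a group labelled as trophectoderm of the 32-cell stage, 1 sample each with no replicate, were measured too. Tet1 was at -2.002 in the ICM and -3.71 in the TE group, Tet3 at -5.85 and -4.76, Dnmt3a at -1.48 and -2.63 and Dnmt3b at 1.13 and 0.61. Dnmt3b was thus higher in the ICM group, the other way round from its relation to the score in single cells. The ICM group was not free of trophectoderm transcripts. Its 8 TE genes were all detected, with a mean level of 0.71 against 1.61 in the TE group, and its ICM genes without Tet1 were at 0.44 against -2.54.

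Over the means of the 58 oocytes and embryos, the genes closest to each member differed. By Pearson coefficient Tet3 was most like Dazl (0.96), Pcgf1 (0.95) and Kdm1b (0.94), and Tet1 most like Tbx3 (0.85), Nanog (0.85) and Esrrb (0.84), transcription factors of pluripotent cells. Dnmt3a was most like Kdm6b (0.80), Setd6 (0.79) and Cbx1 (0.78) and Dnmt3b most like Jarid2 (0.75), Hat1 (0.69) and Pou5f1 (0.64). The points share their stages and control genes, and the values are a description.

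ESC RNA was used as a reference of pluripotent cells, in 10 samples of 3 series, of which 1 holds 3 repeats of 1 amount and 2 are dilutions. The labels do not call them separate cultures. The p-values rest on a spread shared by all oocyte, embryo and series units, of which the 3 series are few. The spread between series may be technical. The ESC markers Pou5f1, Sox2, Nanog and Zfp42 were detected in all 10. Dnmt3b lay between 2.65 and 4.54 with a median of 3.60, and Dnmt3a between -0.41 and 1.79 with a median of 0.92. Tet1 lay between 0.11 and 1.605 with a median of 0.76. Against 32-cell units, Dnmt3b was higher by 2.78 ± 0.38 with an adjusted p of 1.63e-08 in limma and Dnmt3a by 2.39 ± 0.52 with an adjusted p of 0.000108 in limma, 2 of the 4 genes where 48.7% of all genes passed.

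Tet1 differed by 1.97 ± 1.42 with an adjusted p of 0.259 in limma, and passed with a floor at -10 (adjusted p 0.0014 in limma). Its standard error takes in the spread of oocytes and zygotes without detection. Tet3 differed by -0.25 (95% confidence interval -1.80 to 1.30). It was detected in all 3 repeats of 200 pg, at a Ct of 21.4, 20.8 and 19.7, and in 6 of the 10 samples in all. In 1 dilution series it was found at 200 pg but not at 100, 50 or 25 pg, and in the other at the labelled 32 pg and 160 pg but not at 800 pg. The labelled amounts of the series do not match by their control genes, whose mean Ct was 14.2 at 200 pg of the first dilution series and 14.3 at 800 pg of the other. At 25 pg of the first it was 17.6, and at 32 pg of the other 19.5. Over the 3 repeats of 200 pg the SD of the level was 0.68 for Tet3 and 0.10 to 0.13 for the other 3 genes. In the ESC RNA, Tet1 minus Tet3 had a median of 8.06 in all samples and 7.16 in the 6 with both detected.

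Other genes tied to DNA methylation were taken from a list of 19, of which 8 passed on these chips. They are Dppa3, a maternal factor that protects methylation in the zygote, Trim28 and Setdb1, which act together in silencing, Ehmt2, a histone methyltransferase, Hells, a remodelling factor needed for DNA methylation, Dmap1, a partner of Dnmt1, Kdm1b, a histone demethylase needed for imprints in the oocyte, and Cxxc1, which binds unmethylated CG. From zygote to 2-cell, where 68.6% of all genes passed, 2 of the 8 rose, 5 fell and 1 did not pass, with a median of -1.09 against -0.33 over all genes. Ehmt2 rose by 6.31 ± 1.13 with an adjusted p of 2.45e-06 in limma, from 10 of 14 zygotes with detection to 20 of 21 2-cell samples. Dmap1 fell by 3.29 ± 0.19, the largest fall of the list.

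From MII oocyte to zygote Dmap1 alone passed, against 1.92% of all genes. None of the 8 did from 2-cell to 3-cell or from 3-cell to 4-cell, against 8.97% and 3.85%. From 4-cell to 8-cell 1 rose and 2 fell, where 49.4% of all genes passed. From 8-cell to 16-cell Kdm1b alone passed and fell, where 28.2% of all genes passed. Over the whole span from MII oocyte to 32-cell blastomere, where 84% of all genes passed, again 2 of the 8 rose, 5 fell and 1 did not pass, with a median of -1.21 against -0.38. Kdm1b fell by 7.66 ± 0.33 and Ehmt2 rose by 5.73 ± 1.24. From 16-cell to 32-cell, where 10.9% of all genes passed, Setdb1 rose by 2.03 ± 0.45 and Trim28 by 0.91 ± 0.31. Their adjusted p-values were 0.000899 and 0.047 in limma, and Dppa3 fell by 1.39 ± 0.27. Against 32-cell units, ESC RNA had more Kdm1b (3.45 ± 0.47), Hells (2.49 ± 0.35) and Setdb1 (0.89 ± 0.38) and less Dppa3 (-2.97 ± 0.24). In that comparison 48.7% of all genes passed.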

How the data were processed

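The authors lysed each sample in a one-step reaction that reverse transcribed the RNA and amplified all targets together over 18 cycles, and ran the product on BioMark chips with EvaGreen dye. They deposited a table of Ct values, a score in PCR cycles (lower for more transcript, 30 where not detected), and a normalized table in log2 units. The values show the latter to be relative to Gapdh, Hspa8 and Lmnb1 (largest difference 1.03e-08). The methods name Hnrnpr, Ssu72 and Ube2e1, so levels were computed from the deposited Ct relative to these. Of 189 samples, 3 were left out as in the study. Blastomeres were averaged per embryo. Differences were tested with limma 3.58.1 in R 4.3.3 (lmFit, eBayes, Benjamini-Hochberg over 156 genes), and the fit was tested on simulated data. Python 3.11.15, numpy 2.4.6, pandas 2.3.3, scipy 1.17.1 and matplotlib 3.10.9 did the rest. PCR gives no read depth, so the Ct of the control genes stands for it. Named genes are the 4 members, the control genes, a list tied to DNA methylation and the genes most and least like each member. The members and lists were chosen with earlier results of these data known. Alternatives covered the control genes, the undetected values, the samples and the blocks. Primer sequences were not used here.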

Additional observations from a re-analysis of the deposited data

Results flagged for a closer look

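Among 16 groups of 4 to 10 units of the 4 genes, 2 held a unit far from the others, and chance flags about 1 group in 20. Dnmt3b was at 0.914 in the third whole 2-cell embryo, while the other 7 2-cell units lay between -2.05 and -0.72. In the same embryo Tet1 was at -4.09 and Tet3 at -1.46, within the range of the others, and Dnmt3a was at -1.002, the highest of the 8 2-cell units. Tet3 was at -4.99 in the first 2-cell embryo of the set named A, while the other units lay between -2.38 and -0.43. That mean joins 3 samples at -0.0016, -11.2 and -3.73, and the second is the only 2-cell blastomere in which Tet3 was not detected. The first is titled like a whole embryo, but its source name says blastomere, and it was not counted among whole embryos. In these 3 samples Tet1 was at -2.82, -2.57 and -2.18.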

How the results depend on the processing

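The alternatives include fits that left out 1 unit, where the difference at steps without that unit could not change, only its p-value. Of 1132 values of single genes under the alternatives, these included, 1043 kept their direction and their side of the threshold, 27 newly passed and 27 no longer passed. Another 29 changed sign without passing in either fit, and 6 changed direction with a call in at least 1 of the fits. The cause was not tested. These 6 were Dnmt3a from 8-cell to 16-cell in the deposited normalized table (-0.083), Dnmt3b from MII oocyte to 32-cell with no normalization (-3.55) and in the deposited table (-2.63), and, in whole embryos relative to the control genes, Dnmt3b from zygote to 2-cell (0.24) and Tet3 from 8-cell to 16-cell (-0.89) and from 16-cell to 32-cell (1.40).

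The number of the 4 genes that passed changed as follows. From 2-cell to 3-cell it was 1 (Tet3, lower) without Ssu72, with a floor at -10 and without samples of a control Ct above 18. From 3-cell to 4-cell it was 0 without Ssu72, with no normalization, with single cells only, with oocytes and zygotes left out of the fit and without samples of a control Ct above 18. From 4-cell to 8-cell it was 2 without Ssu72, without Ube2e1, with no normalization and with the embryo as a random block, and 3 with sample medians. From 8-cell to 16-cell it was 1 with no normalization and in the deposited table. From 16-cell to 32-cell it was 2 (Dnmt3a and Dnmt3b, both lower) with no normalization and in the deposited table, and 1 with the floor at -10, with the embryo as a random block and with oocytes and zygotes left out of the fit. In whole embryos relative to the control genes it was 1 from 4-cell to 8-cell and 1 from 16-cell to 32-cell. In the fit over the stages, 7 units were left out in turn, the 3 3-cell and 2 16-cell embryos and the 2 2-cell units that stand apart, and no unit of another stage. This gave 3 to 4 from zygote to 2-cell, 0 to 1 from 2-cell to 3-cell, 0 to 1 from 3-cell to 4-cell, 1 to 2 from 4-cell to 8-cell, and 1 to 3 from 8-cell to 16-cell. In whole embryos each of the 15 embryos was left out, which gave 1 to 3 from 4-cell to 8-cell, 2 to 3 from 8-cell to 16-cell and 2 to 3 from 16-cell to 32-cell. The settings with oocytes and zygotes out, without weak samples and without a 2-cell unit were chosen after seeing the data.

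The number of all genes that passed moved more than 1.5 times mainly at steps with few calls. From MII oocyte to zygote it was 6 without Hnrnpr, 5 with sample medians, 0 with no normalization and 0 with the 3 left-out samples added (limma, 22 with an unadjusted p under 0.05 in the fit reported). From 2-cell to 3-cell it was 3 without Hnrnpr, 38 without Ssu72, 8 without Ube2e1, 0 with no normalization, 1 in the deposited table, 9 with the random block, 4 with the left-out samples, 23 with single cells only, 2 without oocytes and zygotes and 3 to 24 leaving out 1 of the 7 units. From 3-cell to 4-cell it was 21 without Ube2e1, 1 with no normalization, 16 in the deposited table, 3 with the random block, 10 with single cells only, 0 without oocytes and zygotes, 3 without weak samples and 2 to 8 leaving out 1 of these units. From 4-cell to 8-cell it was 42 with no normalization. From 8-cell to 16-cell it was 16 with no normalization, 79 in the deposited table, 28 without oocytes and zygotes and 18 to 45 leaving out 1 of them. From 16-cell to 32-cell it was 27 without Ssu72, 26 with sample medians, 52 with no normalization, 43 in the deposited table, 49 with the random block, 11 without oocytes and zygotes and 6 to 18 leaving out 1 of them. In whole embryos relative to the control genes it was 14, 2, 62, 49 and 64 at the steps MII oocyte to zygote, 2-cell to 4-cell, 4-cell to 8-cell, 8-cell to 16-cell and 16-cell to 32-cell, and leaving out 1 embryo gave 1 to 4 from 2-cell to 4-cell.

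Replicate numbers do not pair the samples. For 112 pairs with the same number, deviations from the stage means correlated at a median of 0.00695 (-0.513 to 0.371). With the replicate number as a block, all genes called were 4 from 2-cell to 3-cell, 8 from 16-cell to 32-cell and 2 from MII oocyte to zygote in whole samples. The block left the calls of the 4 genes unchanged except for Dnmt3b from zygote to 2-cell (-0.25) and Dnmt3a from 8-cell to 16-cell (1.53).

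Of the coefficients in single late blastomeres, rho of Dnmt3a with Dnmt3b was 0.70 with no normalization. For Dnmt3a with Tet1 it was -0.29 with sample medians, 0.20 within the 16-cell stage, 0.41 within the 32-cell stage and 0.23 after centring on the embryo. For Dnmt3a with Tet3 it was 0.22 with no normalization and 0.17 within the 32-cell stage. For Dnmt3b with Tet1 it was -0.038 with no normalization, -0.58 with sample medians and 0.24 within the 16-cell stage. For Dnmt3b with Tet3 it was 0.21 with no normalization, 0.17 within the 16-cell stage, -0.34 over cells with both detected and 0.040 with groups of cells included. For Tet1 with Tet3 it was 0.072 with no normalization, -0.081 within the 16-cell stage and 0.53 over cells with both detected.

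Precision is limited by the number of embryos, 2 for the 16-cell and 3 for the 3-cell stage, and by the 22 samples of the 32-cell stage whose mean control gene Ct lay above 18.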
